A study of Mus musculus with 10 samples.

Results

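Naive pluripotency rests on a set of transcription factors, and 10 of them were followed across 5 mouse lines: *Nanog*, *Esrrb*, *Nr5a2*, *Nr0b1*, *Tfcp2l1*, *Klf2*, *Klf5*, *Tbx3*, *Prdm14* and *Zfp42* (also called *Rex1*). They were chosen by name, and all 10 were found among the 18901 genes of the deposited table. RNA was sequenced from Oct4/GFP mouse embryonic fibroblasts (MEF) at passages 2 and 4. Pre-iPS cells, 'control' iPS cells and clones 1 and 2 of 'rNetrin-1-derived' iPS cells were sequenced at passages 5 and 25, which gives 10 libraries with 1 library per line and passage. All cells came from a cross of MF1 and 129 mice, and the MEF carry a green fluorescent protein reporter at *Oct4* (*Pou5f1*). The iPS lines were derived from such MEF with retroviruses for Oct4, Sox2, Klf4 and c-Myc. Clones 1 and 2 were obtained in the presence of recombinant Netrin-1, a secreted guidance cue. The study describes the pre-iPS cells as partially reprogrammed with the same factors, with the retroviral transgenes still on and the Oct4/GFP locus not reactivated. The pre-iPS and iPS lines were grown in medium with knockout serum replacement and leukaemia inhibitory factor (KSR+LIF), and MEF in serum. For pre-iPS and iPS cells the study's methods also give the same medium with 2i, the compounds PD0325901 and chiron. Each line is 1 clone or 1 culture whose passages are repeated samples. A p-value therefore compares lines and their passages and not independently derived clones, and rNetrin-1 treatment cannot be told apart from the history of 1 control line and 2 treated clones. MEF came from mid-gestation embryos, and the lines can be grown on gelatin or on irradiated feeder MEF, with no source used here saying which held for these libraries.

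Naive pluripotency is the state of the pre-implantation epiblast and of mouse embryonic stem cells. It is held by interlocked factors that bind each other's genes: Oct4 and Sox2 act together with *Nanog*, *Esrrb* and *Prdm14*, *Tfcp2l1* and some Kruppel-like factors act downstream of LIF and Stat3, and *Esrrb* answers to relief from the repressor Tcf7l1 when Wnt signalling is on. Pre-iPS cells are cells that stopped part of the way to this state, and activation of the naive factors is the usual sign that the last step has been taken.

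The promoters of the members were examined for short motifs of the factors that are known to bind such genes. RefSeq start sites on GRCm38.p6 gave a promoter for 7 of the 10 members, and those of the 3 members with motifs are shown over the 250 bases upstream of the start, 5′ to 3′ on the strand of the gene. Capitals mark the motifs. *Nanog* and *Zfp42* are shown because they share the octamer bound by Oct4 but stood at different levels in pre-iPS cells, and *Esrrb* because it was the member furthest below its iPS level there.
*Nanog*, chr6:122707239-122707488 (+): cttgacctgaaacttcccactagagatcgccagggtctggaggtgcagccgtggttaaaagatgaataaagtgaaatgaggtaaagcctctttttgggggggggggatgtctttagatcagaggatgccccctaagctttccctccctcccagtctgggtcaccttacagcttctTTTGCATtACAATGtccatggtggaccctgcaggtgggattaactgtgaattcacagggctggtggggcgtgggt
*Zfp42*, chr8:43307010-43307259 (-): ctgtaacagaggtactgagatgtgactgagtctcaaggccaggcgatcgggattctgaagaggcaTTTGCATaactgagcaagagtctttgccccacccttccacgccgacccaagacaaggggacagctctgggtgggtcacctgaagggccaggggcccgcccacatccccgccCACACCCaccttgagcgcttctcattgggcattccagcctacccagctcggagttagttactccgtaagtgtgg
*Esrrb*, chr12:86360867-86361116 (+): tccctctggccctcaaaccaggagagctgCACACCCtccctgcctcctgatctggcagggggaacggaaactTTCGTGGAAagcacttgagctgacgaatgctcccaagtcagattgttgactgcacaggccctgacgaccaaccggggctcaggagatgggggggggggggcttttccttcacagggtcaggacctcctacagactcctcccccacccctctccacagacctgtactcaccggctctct
The octamer TTTGCAT lay 75 to 69 bases upstream of the *Nanog* start, 1 base before the Sox motif ACAATG at 67 to 62 bases, a pair known as a composite Oct4-Sox2 element. In *Zfp42* the octamer lay 185 to 179 bases upstream and a Klf motif (GGGTGTG, here on the other strand) 74 to 68 bases upstream. *Esrrb* held a Klf motif on the other strand 221 to 215 bases upstream and a Stat motif, TTC and GAA around any 3 bases, 178 to 170 bases upstream. Both strands of 32851 promoters of the same length were searched. The octamer occurred in 4.12% of them and in 2 of the 7 members, the Sox motif in 10.7% and 1 member, the Klf motif in 6.93% and 2 members, and the Stat motif in 7.02% and 1 member. The motif AAGGTCA, bound by Esrrb and Nr5a2 (4.08% of promoters), the Tfcp2l1 motif, CCAG repeated around any 6 bases (2.78%), and the homeobox motif TAATTG (7.17%) were in none of the 7. The promoters of *Nr5a2*, *Nr0b1*, *Tfcp2l1* and *Klf2* held none of the motifs. These matches describe letters in a short window and not binding.

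Values are normalised read counts, the pseudo-counts of edgeR that put all libraries at one size, and 1 read was worth 0.888 to 1.18 of this unit. Depth was 38110410 to 52946856 reads on genes per library, so counting error bears only on members with few reads. The 10 markers of embryonic fibroblasts, summed, reached 0.746 to 1.34% of their MEF level in the 8 pre-iPS and iPS libraries, and 0 of the 10 were called between pre-iPS and iPS cells or between clones 2 and 1. The 8 markers of pluripotent cells summed to 424700 to 452200 in pre-iPS cells, 148800 to 193600 in the iPS libraries and 2283 to 2808 in MEF. Most of this sum was *Pou5f1* (mean 404200 in pre-iPS and 99920 in iPS cells), whose retroviral and endogenous RNA cannot be told apart. Of the 8 markers, 5 were called lower in pre-iPS than in iPS cells and 1 higher, against 11.6% and 4.71% of all genes. *Xist*, the RNA of the inactive X chromosome, was at 16030 and 22080 in the pre-iPS libraries and at 21950 and 20010 in clone 2, against 143.7 to 317.2 in the control line and clone 1. *Ddx3y*, *Eif2s3y*, *Kdm5d* and *Uty*, all on the Y chromosome, had 0 to 7 reads in pre-iPS cells and clone 2 and 753 to 2814 in the control line and clone 1, and MEF had both kinds of RNA. Clone 2 thus differed from clone 1 and from the control line in RNA from the sex chromosomes, a difference that cannot be told apart from the clone. The median gene of chromosome 8, which holds *Klf2* and *Zfp42*, was 0.133 and 0.242 higher in clone 2 at passages 5 and 25 than in the control line on the log2 scale (689 genes), and within 0.0221 of it in the other lines. The median gene of the X chromosome, which holds *Nr0b1*, was 0.133 and 0.159 higher in clone 2 than in the control line, and at -0.0655 and -0.0399 in clone 1 (468 genes). Both chromosome medians are relative to the median of the autosomes other than chromosome 8 in the same library. They cover genes with an iPS mean of at least 50.

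In pre-iPS cells the naive factors stood at unequal shares of their iPS levels. *Nr0b1*, *Zfp42* and *Klf5* stood at 50% or more of the iPS mean (over the 6 iPS libraries) and are classed here as high. *Nr5a2*, *Tfcp2l1*, *Tbx3* and *Klf2* were at 10 to 50% of it (partial), and *Nanog*, *Prdm14* and *Esrrb* under 10% (low). The classes rest on this share alone, and some depend on the line taken as reference. As ratios from the limma fit, pre-iPS cells were at 0.746 of clone 1 for *Nr5a2*, 0.74 for *Tfcp2l1*, 0.624 for *Tbx3*, 0.605 for *Klf2* and 0.12 for *Nanog*. They were at 0.722 of the control line for *Nr5a2* and at 0.456 of clone 2 for *Zfp42*. *Esrrb*, *Prdm14*, *Klf5* and *Nr0b1* kept their class against each line. The pre-iPS means of *Klf5* (66.5%), *Klf2* (29.6%) and *Tbx3* (30.8%) were no higher than their MEF means (67.9%, 35.8% and 89.0%). In the limma fit over all 17075 genes tested, on log2(value + 1), a gene was called when its adjusted p was under 0.05 and its log2 difference at least 1 in size, and 6 of the 10 members were lower in pre-iPS than in iPS cells and 1 was higher. Over all genes 11.6% were called lower and 4.71% higher, 16.3% in all. The split of all calls moved with the scaling, from 804 higher and 1977 lower to 1483 and 1426 with quantile normalization, while the number of members called was 7 in either. The median log2 difference was -1.37 over the members and 0.00112 over all genes. Both pre-iPS libraries lay below all 6 iPS libraries for 7 of the 10 members, as they did for 21.7% of all genes.

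**Figure D1:**
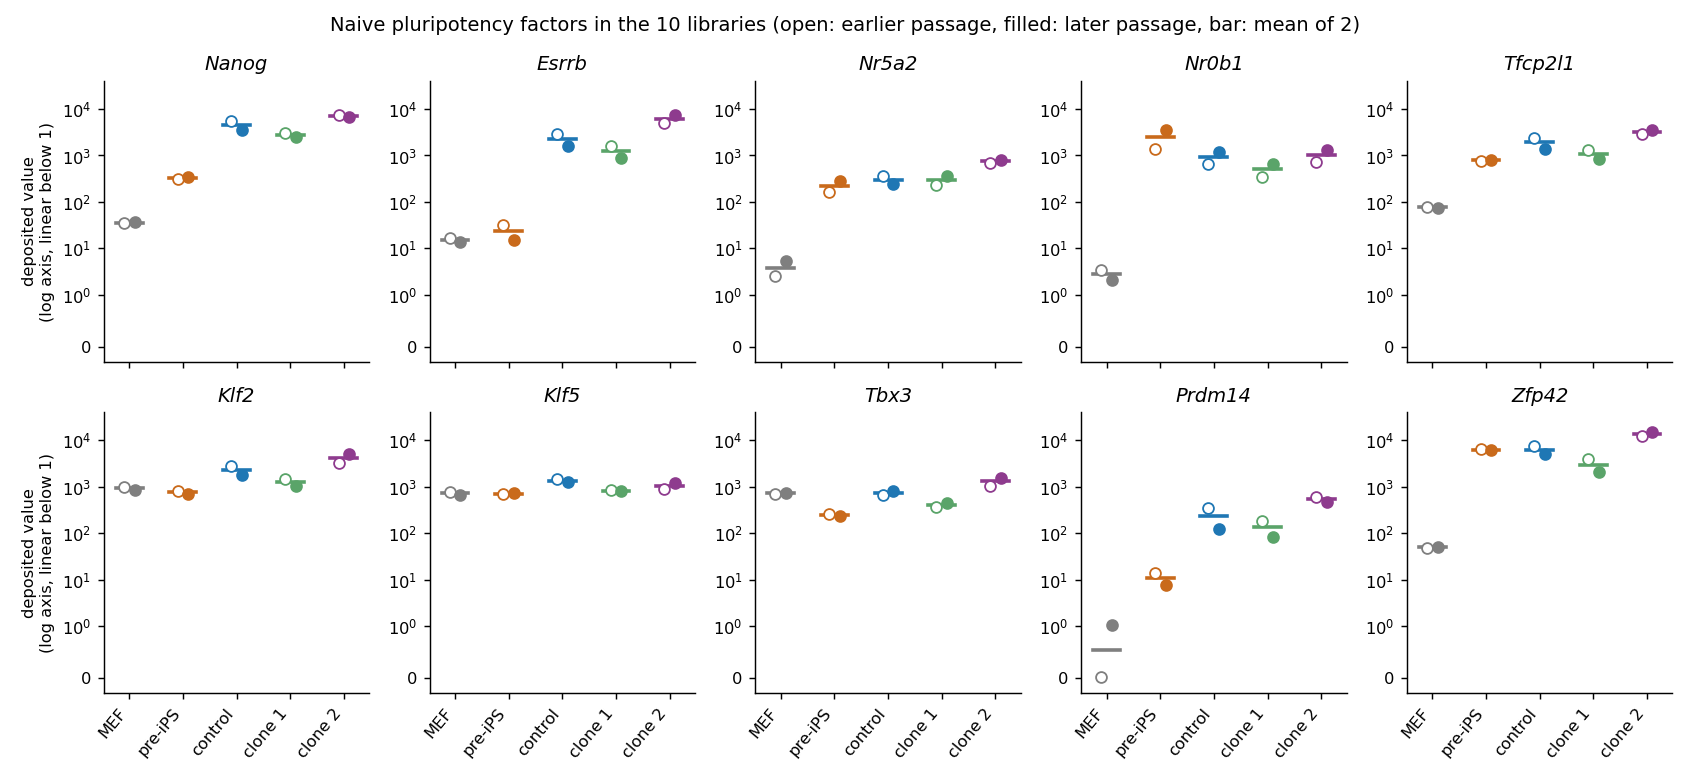
Deposited values (log axis, linear below 1) of the 10 members in the 10 libraries; open points are the earlier and filled points the later passage of a line, and bars are means of 2. Nanog, Esrrb and Prdm14 are far below the iPS lines in pre-iPS cells, Zfp42 and Nr0b1 are not, and Klf2, Klf5 and Tbx3 are also on in MEF.

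The low members were *Esrrb*, *Nanog* and *Prdm14*. *Esrrb*, an orphan nuclear receptor that can stand in for Nanog (chr12:86361117-86521628 on GRCm38, plus strand), measured 31.63 and 15.36 in pre-iPS cells at passages 5 and 25. It measured 2946 and 1626 in the control line, 1617 and 900.2 in clone 1 and 5094 and 7387 in clone 2. Pre-iPS cells held 0.72% of the iPS mean of 3262 ± 2507 (SD, n = 6), and no pre-iPS library came near any iPS library. The log2 difference was -6.78 ± 0.35 (SE, adjusted p = 4.28e-06), 110-fold lower. Against MEF, at 16.47 and 13.76, the log2 difference of pre-iPS cells was 0.52 with an interval of -0.44 to 1.49 (adjusted p = 0.294), and the MEF and pre-iPS libraries overlapped. *Esrrb* and, at a higher level, *Klf2* were the members called between MEF and iPS cells but not between MEF and pre-iPS cells.

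*Nanog*, the homeobox factor that lets stem cells self-renew without LIF (chr6:122707489-122714633, plus strand), measured 311.2 and 349.5 in pre-iPS cells. The iPS lines measured 5402 and 3499 (control), 3063 and 2489 (clone 1) and 7441 and 6852 (clone 2), and MEF 34.46 and 36.92. The pre-iPS libraries lay between MEF and iPS cells with no overlap on either side. Their mean was 6.89% of the iPS mean of 4791 ± 2078 (SD, n = 6), with a log2 difference of -3.74 ± 0.16 (SE, adjusted p = 3.06e-06), 13.3-fold lower. Pre-iPS cells were 9.02-fold above MEF (log2 difference 3.17 ± 0.20, SE, adjusted p = 1.55e-06). *Nanog* has processed pseudogenes, and reads they share with it may have been counted to either.

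*Prdm14*, a PR-domain repressor of FGF signalling and DNA methyltransferase genes (chr1:13113457-13127163, minus strand), measured 14.28 and 7.678 in pre-iPS cells, from 14 and 8 reads. The control line measured 347.1 and 123.1, clone 1 183.8 and 84.17, and clone 2 614.9 and 462.4. Every iPS library was above both pre-iPS libraries, and the iPS libraries themselves spread widely. Pre-iPS cells held 3.63% of the iPS mean of 302.6 ± 209.3 (SD, n = 6), with a log2 difference of -4.39 ± 0.49 (SE, adjusted p = 0.000272). MEF had 0 reads at passage 2 and 1 read at passage 4. Pre-iPS cells were called higher than MEF (adjusted p = 0.00195), and the ratio of their reads, scaled to the library size, was 19.5 with an exact 95% interval of 3.15 to 805, which covers counting error only.

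The partial members were called lower than in iPS cells except for *Nr5a2*. *Tfcp2l1*, a Grainyhead-like factor downstream of LIF-Stat3 (chr1:118627945-118685168, plus strand), measured 773.3 and 796.9 in pre-iPS cells. It measured 2433 and 1392 in the control line, 1330 and 846.8 in clone 1, 2866 and 3550 in clone 2, and 79.12 and 73.96 in MEF. Clone 1 at passage 25 came nearest, just above both pre-iPS libraries. The mean was 37.9% of the iPS mean (log2 difference -1.23 ± 0.23, SE, adjusted p = 0.00338), and 10.1-fold above MEF (adjusted p = 8.87e-06).

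*Klf2*, a Kruppel-like factor whose protein Erk signalling destabilizes (chr8:72319033-72321656, plus strand), measured 830.4 and 698.0 in pre-iPS cells, against 975.8 and 873.9 in MEF. The iPS lines measured 2790 and 1774 (control), 1496 and 1061 (clone 1) and 3263 and 5105 (clone 2). The pre-iPS libraries were below both the iPS and the MEF libraries. The difference from iPS cells was called (log2 -1.56 ± 0.22, SE, adjusted p = 0.000933) and that from MEF was not (log2 -0.28, interval -0.90 to 0.35; adjusted p = 0.388). *Tbx3*, a T-box factor (chr5:119670669-119684724, plus strand), measured 263.2 and 240.0 in pre-iPS cells and was lower there than in either of the other states. MEF measured 703.7 and 749.0, the control line 658.5 and 807.2, clone 1 364.9 and 446.5 and clone 2 1061 and 1557. The log2 difference was -1.52 ± 0.16 against iPS cells (SE, adjusted p = 0.000207) and -1.53 ± 0.20 against MEF (SE, adjusted p = 0.000143). It was the 1 member called lower in pre-iPS cells than in fibroblasts.

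*Nr5a2*, an orphan nuclear receptor known to act on the *Pou5f1* promoter (chr1:136842571-136960448, minus strand), measured 160.2 and 287.1 in pre-iPS cells. It measured 362.6 and 244.0 in the control line, 233.5 and 355.2 in clone 1, 693.3 and 801.1 in clone 2, and 2.495 and 5.245 in MEF, from 2 and 5 reads. At passage 25 the pre-iPS value was inside the range of the control line and clone 1, and at passage 5 it was below every iPS library. The mean was 49.9% of the iPS mean, at the limit that separates partial from high. The log2 difference of -0.90 ± 0.32 (SE) was under the fold limit, with an adjusted p of 0.0545. Without the passage 25 pre-iPS library the log2 difference was -1.31. Against MEF it was called higher (log2 difference 5.53 ± 0.39, SE, adjusted p = 3.41e-06), and the ratio of reads, with 7 in MEF, was 57.7 with an exact 95% interval of 27.8 to 144.

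Among the members classed as high, *Nr0b1* was higher in pre-iPS than in iPS cells. *Nr0b1* (*Dax1*) encodes a nuclear receptor without a DNA-binding domain of the usual kind, which restrains Oct4 and Nr5a2 (chrX:86191764-86195947, plus strand). It measured 1393 and 3620 in pre-iPS cells, 648.8 and 1175 in the control line, 348.9 and 661.0 in clone 1, 717.1 and 1290 in clone 2, and 3.505 and 2.132 in MEF, from 3 and 2 reads. Both pre-iPS libraries were above all 6 iPS libraries, and the passage 25 library stood far above the passage 5 library. The log2 difference was 1.60 ± 0.43 (SE, adjusted p = 0.0186), 3.04-fold higher, and without the passage 25 pre-iPS library it was 0.91 and not called. Against MEF the ratio of reads, with 5 in MEF, was 910 with an exact 95% interval of 390 to 2800. The median X-linked gene, set against the autosomes as above, was at -0.0220 and 0.0641 in the pre-iPS libraries relative to the control line on the log2 scale (468 genes).

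*Zfp42*, a zinc finger gene derived from *Yy1* and a common marker of naive cells (chr8:43295063-43306980, minus strand), measured 6512 and 6101 in pre-iPS cells, inside the range of the iPS lines. These measured 7387 and 5025 (control), 3915 and 2109 (clone 1) and 12600 and 15150 (clone 2), against 47.56 and 51.67 in MEF. The log2 difference from the iPS mean was 0.02 with an interval of -0.50 to 0.53 (adjusted p = 0.961), and its sign turned with the scaling. Against MEF, pre-iPS cells were 125-fold higher (log2 6.96 ± 0.27, SE, adjusted p = 1.39e-07). *Klf5*, the Kruppel-like factor of the early blastocyst (chr14:99298691-99315036, plus strand), measured 698.8 and 733.6 in pre-iPS cells, against 785.8 and 676.7 in MEF. The iPS lines measured 1473 and 1242 (control), 850.6 and 814.0 (clone 1) and 895.6 and 1186 (clone 2). Pre-iPS cells were below all iPS libraries, by a log2 difference of -0.55 ± 0.13 (SE, adjusted p = 0.00906) that is under the fold limit, and overlapped MEF (log2 -0.03, interval -0.38 to 0.33).

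**Figure D2:**
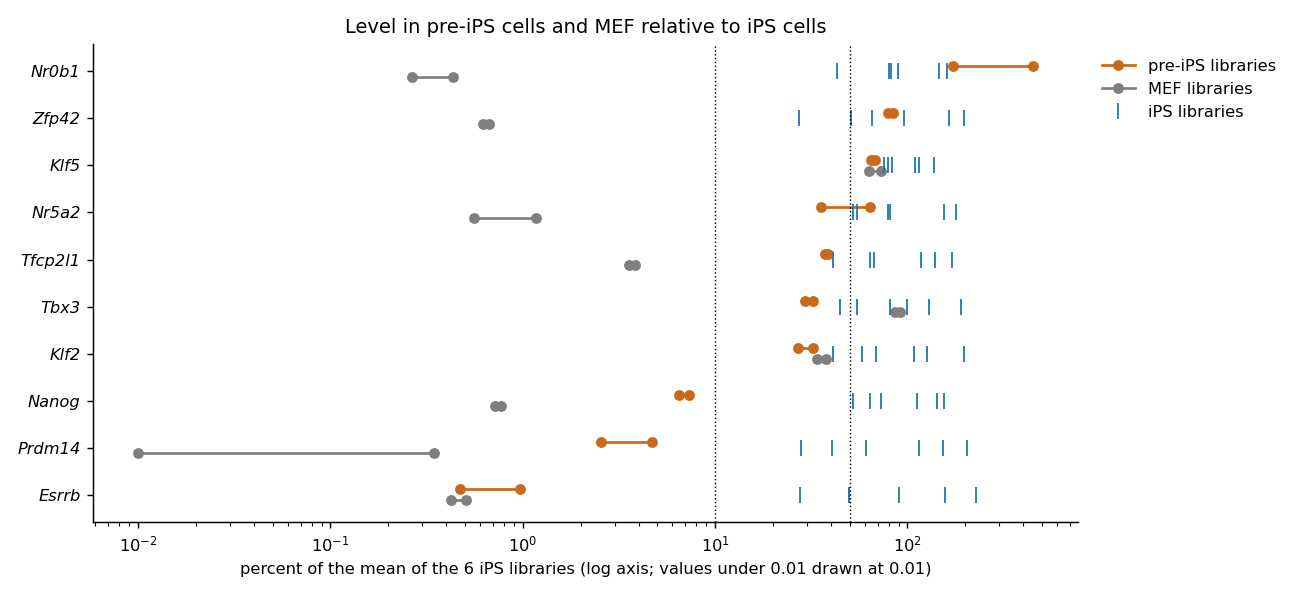
Each member's level in the 2 pre-iPS and 2 MEF libraries, as a percentage of the iPS mean (log axis), with the 6 iPS libraries as ticks; dotted lines mark 10% and 50%, and the MEF library with 0 Prdm14 reads is drawn at 0.01%. Pre-iPS cells ran from 0.72% for Esrrb to 311% for Nr0b1.

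Fibroblasts set the lower end of the scale for most members. In MEF 8 of the 10 members were called lower than in iPS cells and 0 higher, where 26.6% of all genes were called lower, 21.6% higher and 48.2% in either direction. *Klf5* and *Tbx3* were not called, at 67.9% and 89.0% of the iPS mean, and *Klf2* was called at 35.8% (log2 -1.29 ± 0.22, SE, adjusted p = 0.000642). The other 7 were at 0.177 to 3.7% of the iPS mean. Scaling to *Gapdh*, *Actb*, *Hprt* and *Tbp* moved the median of all genes in MEF against iPS cells by 0.387 on the log2 scale, turned the 3690 higher and 4547 lower calls of all genes to 5075 and 3647, and left *Klf2* at -0.90, under the fold limit. Between pre-iPS cells and MEF, 6 members were called higher in pre-iPS cells and 1 lower, against 22.4% and 20.9% of all genes (43.2% in all). With the same scaling the 3820 higher and 3563 lower calls became 2887 and 5006, and 7 members were still called. Both pre-iPS libraries were above both MEF libraries for 6 members, as for 45.4% of all genes. The members not called between the 2 were *Esrrb*, *Klf2* and *Klf5*.

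Since the iPS lines differed among themselves, pre-iPS cells were also compared with each of them, a comparison added after the data were seen. Against the control line 6 members were lower and 0 higher, where 11.9% of all genes were lower, 5.76% higher and 17.6% called in all. Against clone 1 there were 3 lower and 2 higher (8.71%, 3.72% and 12.4% of all genes), and against clone 2 there were 8 lower and 0 higher (11.1%, 4.67% and 15.7%). *Nanog*, *Esrrb* and *Prdm14* were called lower against each line, with log2 differences of -3.06 to -4.43, -5.71 to -8.05 and -3.45 to -5.54. *Zfp42* took its direction from the line, with a log2 difference of 0.05 ± 0.27 against the control line (SE, adjusted p = 0.908), 1.13 ± 0.27 against clone 1 (adjusted p = 0.0202) and -1.13 ± 0.27 against clone 2 (adjusted p = 0.0140). *Nr0b1* was called higher against clone 1 alone (log2 2.22, adjusted p = 0.0188), with 1.36 against the control line (adjusted p = 0.0757) and 1.22 against clone 2 (adjusted p = 0.108). *Tfcp2l1*, *Klf2* and *Tbx3* were called lower against the control line and clone 2 but not against clone 1, where the log2 differences were -0.43 (adjusted p = 0.309), -0.73 (adjusted p = 0.0952) and -0.68 (adjusted p = 0.0421, under the fold limit). These comparisons share the pre-iPS libraries, and the differences among them are those of the iPS lines given next.

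Between the rNetrin-1-derived clones the members differed more than most genes did. Clone 2 was called higher than clone 1 for 6 of the 10 members, *Nanog*, *Esrrb*, *Tfcp2l1*, *Klf2*, *Tbx3* and *Zfp42*, and lower for 0, where 0.714% of all genes were called higher, 0.252% lower and 0.966% in either direction. The median log2 difference was 1.63 over the members and -0.00671 over all genes. Both clone 2 libraries were above both clone 1 libraries for all 10 members, as for 22.3% of all genes tested. The largest called differences were those of *Esrrb* (log2 2.35 ± 0.42, SE, adjusted p = 0.0401, 5.08-fold) and *Zfp42* (2.27 ± 0.27, adjusted p = 0.0121, 4.81-fold). *Klf2* (1.70 ± 0.27, adjusted p = 0.0294), *Tbx3* (1.67 ± 0.20, adjusted p = 0.0121), *Tfcp2l1* (1.59 ± 0.28, adjusted p = 0.0375) and *Nanog* (1.37 ± 0.20, adjusted p = 0.0221) followed. *Prdm14* had a log2 difference of 2.09 ± 0.60 (adjusted p = 0.140), *Nr5a2* 1.37 ± 0.39 (adjusted p = 0.138), *Nr0b1* 1.00 ± 0.53 (adjusted p = 0.393) and *Klf5* 0.31 ± 0.16 (adjusted p = 0.371).

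**Figure D3:**
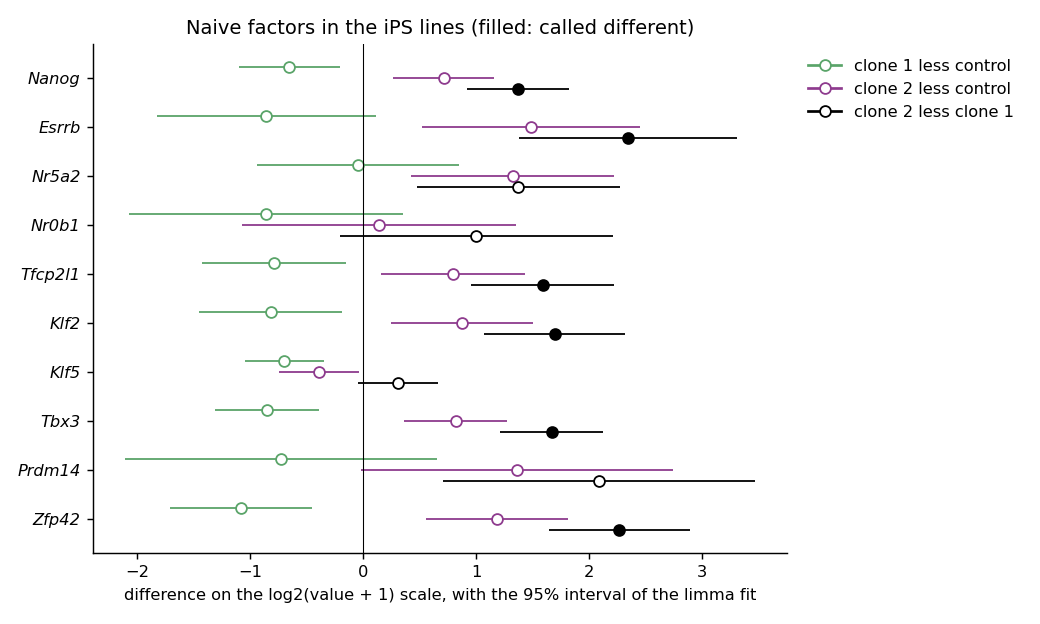
Log2 differences between the iPS lines with the 95% interval of the limma fit, on the log2(value + 1) scale; filled points are called. Only the clone 2 less clone 1 differences include calls, from 1.37 for Nanog to 2.35 for Esrrb, while the differences from the control line lie on either side of 0.

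The calls between the clones rest on few libraries. With MEF left out and the passage as a block, which the other lines share, *Prdm14* and *Nr0b1* were called too, 8 of 10 in all. The parts of the block and of leaving out MEF were not separated. DESeq2 also called 8 and edgeR 6. With only the 4 libraries of the clones in the fit, 0 of 10 were called and 8 had an unadjusted p under 0.05. Without clone 2 at passage 25 the count was 0, without clone 1 at passage 5 or 25 it was 1, and without either MEF library, which enter through the shared spread alone, it was 2. The sums of the markers of primitive endoderm were 4997 to 5811 in clone 2 and 8200 to 11290 in clone 1, with 0 of 8 markers called, and those of primed epiblast 8119 to 8635 and 9965 to 10070, with 0 of 6 called. The part of these markers, of chromosome 8 and of the sex chromosomes in the difference was not tested. *Klf2* and *Zfp42* lie on chromosome 8, and the other members called lie on other chromosomes.

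Against the control line the clones lay on either side. With the mean of the 2 clones, 0 of 10 members were called by limma (0.99% of all genes higher, 1.12% lower, 2.11% in all), by edgeR or by DESeq2, and 1 had an unadjusted limma p under 0.05. The largest members' differences were a log2 of 0.64 ± 0.34 for *Nr5a2* (adjusted p = 0.383) and -0.55 ± 0.13 for *Klf5* (adjusted p = 0.0641). For clone 1 alone 0 of 10 were called (0.767% of all genes higher, 0.638% lower, 1.41% in all), with 6 at an unadjusted p under 0.05, 0 called by edgeR and 1 by DESeq2. The log2 differences ran from -1.08 ± 0.27 for *Zfp42* (adjusted p = 0.0862) to -0.05 ± 0.39 for *Nr5a2* (adjusted p = 0.969). For clone 2 alone 0 of 10 were called (1.11% of all genes higher, 1.31% lower, 2.42% in all), with 8 at an unadjusted p under 0.05, 0 called by edgeR and 3 by DESeq2. The log2 differences ran from -0.39 ± 0.16 for *Klf5* (adjusted p = 0.222) to 1.49 ± 0.42 for *Esrrb* (adjusted p = 0.0993). With the passage as a block and MEF left out, *Zfp42* was called lower in clone 1, 1 of 10, and 4 of 10 were called in clone 2, among them *Zfp42* and *Esrrb*, both higher. These comparisons share the control libraries and are not independent of each other.

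With passage, *Nr0b1* rose and the other members did not move together. In the 8 libraries at passages 5 and 25, with a term for each line, *Nr0b1* was the 1 member called (log2 difference of passage 25 less passage 5 of 1.00 ± 0.10, SE, adjusted p = 0.00332), where 0.398% of all genes were called higher, 1.29% lower and 1.69% in either direction. It was 2.6 times its passage 5 value in pre-iPS cells, 1.81 times in the control line, 1.89 times in clone 1 and 1.8 times in clone 2. The call stands at the fold limit and was lost without the pre-iPS line, when the log2 difference was 0.87. *Prdm14* was lower at passage 25 in each line, at 0.538, 0.355, 0.458 and 0.752 times its passage 5 value, and its log2 difference of -0.96 ± 0.20 (SE, adjusted p = 0.0280) was under the fold limit. The 8 remaining members had log2 differences between -0.54 and 0.27, none with an adjusted p under 0.05. The markers of trophoblast moved with passage too, with 3 of 8 called lower and 0 higher at passage 25, and their part in these values was not tested.

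**Figure D4:**
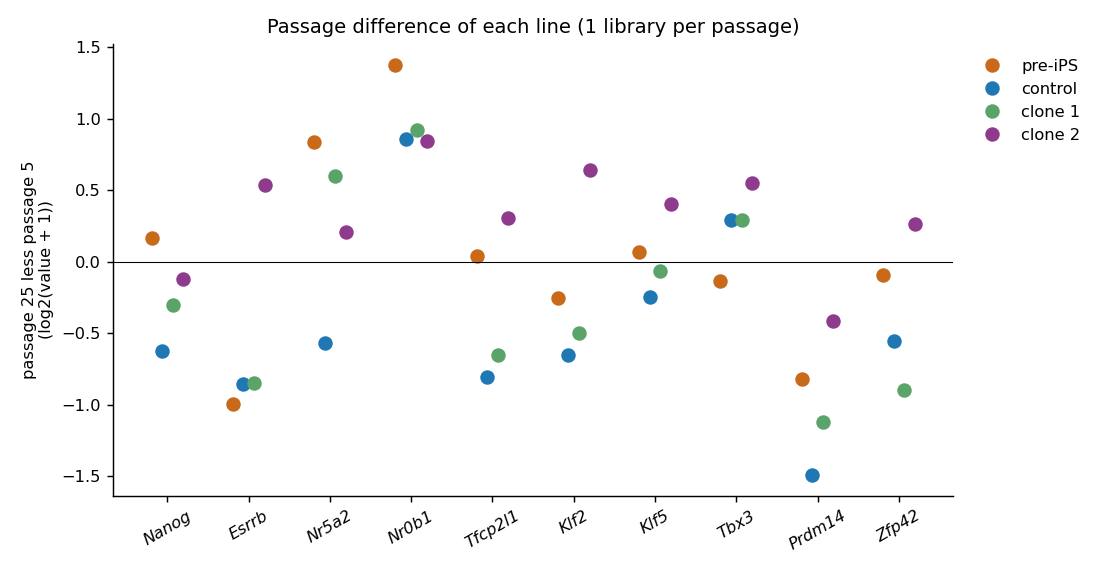
Log2 difference of passage 25 less passage 5 for each member in the pre-iPS line, the control line and clones 1 and 2; each point is 1 library against 1 library, so there is no error bar. Nr0b1 is above 0 and Prdm14 below 0 in the 4 lines, and Esrrb, Tfcp2l1, Klf2, Klf5 and Zfp42 are above 0 in clone 2 and below 0 in the control line and clone 1.

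The lines differed in the direction of the other members with passage, which 1 library per line and passage leaves without a test. At passage 25 8 of 10 members were lower in the control line and 7 in clone 1, against 5 in pre-iPS cells and 2 in clone 2. The median log2 difference of the members was -0.597 in the control line, -0.397 in clone 1, -0.0253 in pre-iPS cells and 0.357 in clone 2, and that of all genes -0.0275 to -0.00926. The ratio of clone 2 to clone 1 was higher at passage 25 for most members, with 1 library per clone and passage and no test. Clone 2 was at 3.15 times the clone 1 value of *Esrrb* at passage 5 and at 8.21 times at passage 25. For *Zfp42* the ratios were 3.22 and 7.18, for *Klf2* 2.18 and 4.81, and for *Tfcp2l1* 2.15 and 4.19. *Prdm14* (3.35 and 5.49) and *Klf5* (1.05 and 1.46) also had the higher ratio at passage 25, as did *Nanog* (2.43 and 2.75) and *Tbx3* (2.91 and 3.49). The ratio was lower at passage 25 for *Nr5a2* (2.97 and 2.26) and *Nr0b1* (2.05 and 1.95).

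Per kb of exon, which allows levels to be set side by side between genes, *Zfp42* was the most abundant member in iPS cells (4090 per kb), followed by *Nanog* (2140) and *Klf2* (1400). *Esrrb* (580), *Nr0b1* (446), *Tfcp2l1* (223), *Klf5* (207), *Tbx3* (157) and *Prdm14* (118) came next, and *Nr5a2* was the least abundant (80.4). In pre-iPS cells the order was *Zfp42* (3350), *Nr0b1* (1390), *Klf2* (414), *Nanog* (147), *Klf5* (138), *Tfcp2l1* (84.7), *Tbx3* (48.3), *Nr5a2* (40.1), *Prdm14* (4.28) and *Esrrb* (4.18). *Esrrb* stood above *Nr0b1* in the iPS mean through clone 2 (1110 against 555 per kb). It was below *Nr0b1* in the control line (406 against 504) and in clone 1 (224 against 279). In pre-iPS cells *Esrrb* was among the lowest, where its level and that of *Prdm14* did not differ beyond the spread of the libraries. In MEF *Klf2* (501), *Klf5* (141) and *Tbx3* (140) led. Exon lengths came from GENCODE M21, and neighbours such as *Klf5* and *Tfcp2l1* in iPS cells lie within the spread of the 6 libraries.

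Other genes of the pluripotency network and its inputs were read from fixed lists. Of all genes, 11.6% were called lower in pre-iPS than in iPS cells and 4.71% higher. Of 9 general pluripotency factors, 6 were lower in pre-iPS than in iPS cells and 1 was higher (median log2 difference -1.47), with *Lin28a* (-7.02 ± 0.30, SE) and *Foxd3* (-5.17 ± 0.39) the lowest, *Sox2* at 0.93 ± 0.12, not called, and *Pou5f1* the highest (2.02 ± 0.10). Retroviral *Pou5f1*, *Sox2*, *Klf4* and *Myc* RNA cannot be told apart from that of the endogenous genes in these counts. Of 11 tested other naive-state markers (12 listed), 8 were lower and 1, *Klf4*, was higher (median -2), with *Dppa3* (-7.11 ± 0.41) and *Tcl1* (-5.88 ± 0.39) the lowest. Genes of the primed state were not higher in pre-iPS cells: 7 of 9 were lower and 0 higher (median -2.86), *Otx2* by -7.47 ± 0.44. Primed epiblast markers gave 5 of 6 lower and 0 higher.

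The counts for the signalling inputs, relatives and markers are to be read against the shares of all genes called in pre-iPS against iPS cells, 11.6% lower and 4.71% higher, and no difference between lists was tested. Of 6 genes of the LIF-Stat3 input, which carries the LIF signal to *Tfcp2l1*, *Klf4* and *Klf5*, 0 were called in either direction (median 0.221), and 4 of 6 were higher in MEF than in iPS cells, where 21.6% of all genes were. Of 7 genes of the Wnt-Tcf7l1 input, 4 were lower in pre-iPS cells and 0 higher, led by *Lef1* (-4.58 ± 0.54) and the Wnt target *Axin2* (-3.72 ± 0.17). Of 9 genes of the FGF-Erk input 1 was lower and 0 higher. Of 6 partners and targets of *Prdm14* 4 were lower and 0 higher, and *Dnmt3l* had the lowest value (-7.55 ± 0.55). Of 21 tested relatives of the members (23 listed) 1 was lower (*Klf17*, -3.98 ± 0.28) and 1 higher (*Klf4*). Of the marker lists, 1 of 8 pluripotent cell markers was higher and 5 lower, 0 of 8 primitive endoderm markers were higher and 4 lower, and 1 of 8 trophoblast markers was higher and 1 lower. The primitive endoderm markers summed to 3526 to 4829 in pre-iPS cells, with *Sox17* and *Foxa2* under 10, and to 4997 to 15110 in the iPS libraries, and the primed epiblast markers to 5354 to 5578 and 8119 to 10800, with *Otx2* and *T* under 10 in pre-iPS cells. *Zic2* made up most of the primed epiblast sum in pre-iPS cells (mean 5312, against 5598 in iPS cells), so this sum does not show the lower level of the other 5 markers. The part of these markers in the members' values was not tested. The lists overlap with each other, *Dnmt3a* and *Dnmt3b* in both the primed list and the *Prdm14* list for instance.

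**Figure D5:**
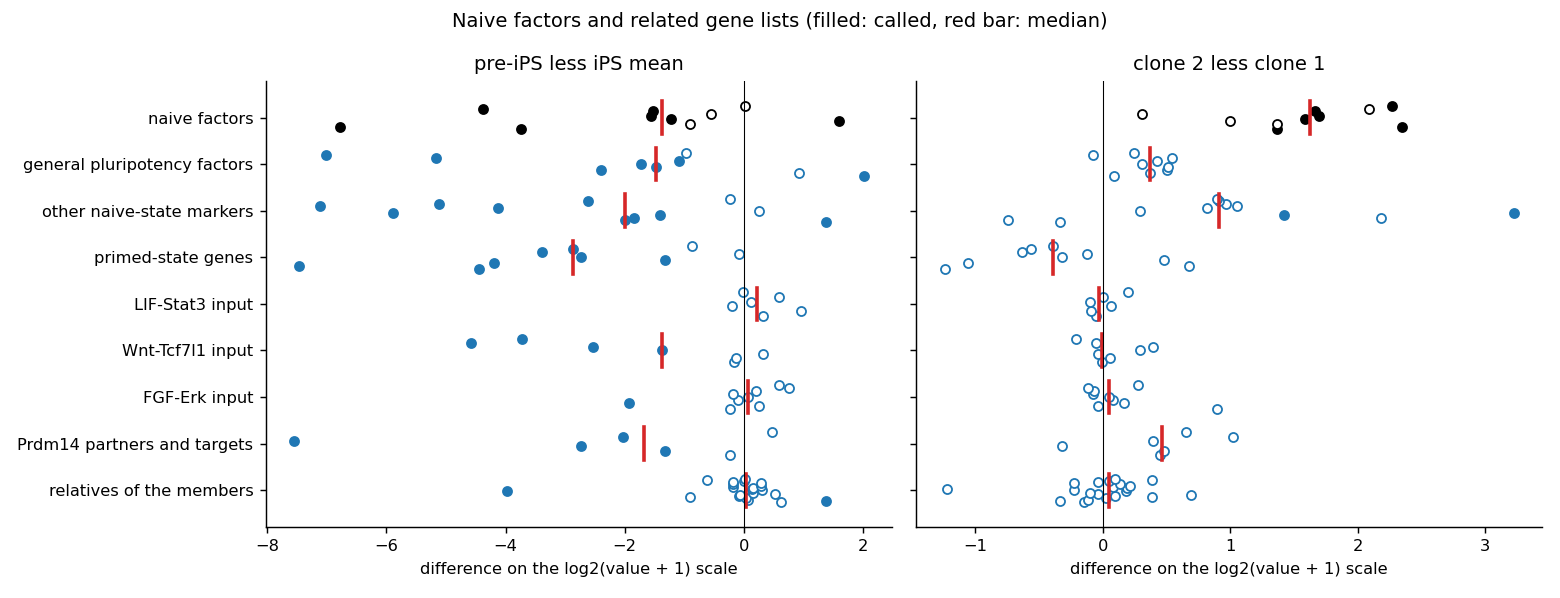
Log2 differences, on the log2(value + 1) scale, of the 10 members (black) and of the genes of 8 related lists (blue), pre-iPS less the mean of the iPS lines (left) and clone 2 less clone 1 (right); filled points are called and red bars are medians. On the left general factors, naive markers and primed genes are spread to low values, and on the right the members have a median of 1.63 while the other lists have medians from -0.389 to 0.907.

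Between clones 2 and 1 the same lists had few calls. Of the 11 other naive-state markers 2 were higher in clone 2, *Tcl1* (log2 3.23 ± 0.47, SE, adjusted p = 0.0222) and *Fbxo15* (1.43 ± 0.28, adjusted p = 0.0489), with a median of 0.907. The other 7 lists had 0 calls in either direction, with medians from -0.389 for the primed-state genes to 0.461 for the *Prdm14* list.

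The members' common pattern over the 6 iPS libraries, the mean of their centred log2 values, was 0.638 and 0.962 in clone 2 at passages 5 and 25, 0.202 and -0.263 in the control line and -0.642 and -0.897 in clone 1. *Klf2* (Pearson r = 0.986), *Zfp42* (0.980), *Esrrb* (0.979), *Tfcp2l1* (0.973) and *Nanog* (0.969) followed the mean of the other 9 members most closely, and *Nr0b1* (0.481) and *Klf5* (0.420) least. Among 1819 genes that vary in these libraries and are not members, *Zyg11a* (r = 0.995), *Tcl1* (0.994), *Xlr3c* (0.993), *Pou2f3* (0.991) and *Jam2* (0.989) were most like the common pattern. *Xlr3c* is X-linked, and its mean was 338.6 in clone 2, 21.97 in clone 1 and 70.74 in the control line. These correlations are a description over 6 libraries, 2 from each of 3 lines, which share the line's history and a sequencing lane.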

How the data were processed

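The authors sequenced polyadenylated RNA as 50-nt single reads, with 10 libraries pooled on 1 lane, and deposited 1 table of 18901 genes. Its unit is a normalised signal: pseudo-counts, which the authors made with edgeR so that all libraries have one size. The submitters' processing notes name FastQC, CASAVA 1.8.2, TopHat2 2.0.8b, HTSeq 0.5.3p9, edgeR and mm10, with no roles. The annotation and the strand used in counting are not given in the sources used here, so reads shared with pseudogenes or overlapping genes are uncertain. Whole reads were recovered for 100% of the values (tolerance 0.05 reads), and equalizing them again gave the deposited values within a median of 7e-12%. Listed genes had at least 10 reads over the 10 libraries.

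Genes reaching 10 in 2 or more libraries (17075, all 10 members among them) were fitted with limma 3.58.1 in R 4.3.3 (lmFit, eBayes with trend) on log2(value + 1), with 1 mean per line over the 10 libraries and Benjamini-Hochberg adjustment over all genes. A call needed a log2 difference of at least 1 in size with an adjusted p under 0.05. Passage 25 was compared with passage 5 over 8 libraries with the line as a block. Intervals are the 95% intervals of that fit. A log2 difference on this scale understates the change of genes with few reads. The alternatives were pseudocounts of 5 and 0.5, no filter, a mean of at least 50 (14043 genes), quantile normalization, scaling to *Gapdh*, *Actb*, *Hprt* and *Tbp*, the adjusted p alone, edgeR 4.0.16 (quasi-likelihood) and DESeq2 1.42.0 on the recovered reads, only the lines compared, the passage block (without MEF), and leaving out each library. In the passage fits, leaving out a library removed its whole line, so both libraries of a line gave the same fit.

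Passage numbers come from the labels. Deviations of same-passage libraries from their line means correlated at 0.235 to 0.504 across genes in the 6 pairs of lines (mean 0.353). The main fits between lines left this pairing out, and it entered only as the passage block among the alternatives. The tests were tried on simulated data first. All 10 members are described. The other genes named are the 2 highest or 2 lowest of a list, genes called in it, the 5 most like the members over the iPS libraries (mean value of at least 50, SD of at least 0.5), or sex-chromosome genes. The members and lists were chosen with earlier results of these data known. Promoters came from the RefSeq table on GRCm38.p6 (the first listed per gene), and gene positions and exon lengths from GENCODE M21 on GRCm38.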

Additional observations from a re-analysis of the deposited data

Results flagged for a closer look

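For 6 members the 2 clones derived in the same way differed by the limma fit, with clone 2 above clone 1. Of all genes, 0.714% were called higher in clone 2. Both clone 2 libraries were above both clone 1 libraries for all 10 members and for 22.3% of all genes tested. With only the libraries of the 2 clones in the fit, 0 members were called. On the log2 scale the differences were 1.37 for *Nanog*, 2.35 for *Esrrb*, 1.59 for *Tfcp2l1*, 1.70 for *Klf2*, 1.67 for *Tbx3* and 2.27 for *Zfp42*, each higher in 2 of 2 clone 2 libraries. *Xist* and the Y-linked genes separate the same clones, and the median of chromosome 8 was higher in clone 2, as given above.

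For 5 members the change with passage in clone 2 ran opposite to that in both the control line and clone 1. Passage 25 less passage 5 in clone 2 was 0.536 for *Esrrb*, 0.309 for *Tfcp2l1*, 0.646 for *Klf2*, 0.405 for *Klf5* and 0.266 for *Zfp42* on the log2 scale. In the control line the same members were at -0.857, -0.805, -0.653, -0.246 and -0.556, and in clone 1 at -0.844, -0.651, -0.495, -0.0634 and -0.892. The difference between the lines was not tested, since each line has 1 library per passage. The share of all genes with this pattern of signs was not counted, so the 5 members have no background to be set against.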

How the results depend on the processing

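The counts of members called in pre-iPS cells and MEF (7, 8 and 7) stayed within 1.5 times their value under each alternative run. Such totals can hide a change of members. Without the passage 25 pre-iPS library, the pre-iPS against iPS log2 difference of *Nr0b1* fell from 1.60 to 0.91, under the fold limit. That of *Nr5a2* went from -0.90 to -1.31, beyond it. Between clone 2 and clone 1 (6 called) the fit of only the lines compared gave 0, and leaving out 1 library gave 0 to 6, with 0 without clone 2 at passage 25. For clone 1 against the control line (0 called) DESeq2 gave 1, the replicate block 1, and leaving out 1 library 0 to 1. For clone 2 against the control line (0 called) a pseudocount of 5 and quantile normalization gave 1 each, DESeq2 3, the replicate block 4, and leaving out 1 library 0 to 1. For passage (1 called) a pseudocount of 5, the 6 iPS libraries alone and the fit without the replicate block gave 0, and the adjusted p alone 2. With 1 line left out the count was 0 to 2, with 0 without the pre-iPS line and 2 without clone 2. The replicate block changed no other count of members by over 1.5 times. MEF passages have other numbers, so MEF was left out of the block fits and no block was fitted for comparisons with MEF. The causes were not tested.

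Differences near 0 turned sign. *Zfp42* in pre-iPS against iPS cells was -0.0004887 with quantile normalization, -0.01061 with housekeeping scaling, -0.02523 with edgeR, -0.0224 with DESeq2, and -0.1321 to 0.1652 with 1 library left out. *Tbx3* in MEF against iPS cells was -0.0456 with quantile normalization, -0.004277 with edgeR and -0.08671 to 0.09736 with 1 library left out. With 1 library left out *Klf5* in pre-iPS cells against MEF was -0.1341 to 0.08134, and *Nr5a2* in clone 1 against the control line -0.3481 to 0.2548. With 1 line left out *Klf5* with passage was -0.07967 to 0.1373.

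Of 618 values of single members under other processing, 587 kept their direction and their side of the thresholds, 10 lost and 15 gained a call, and 6 turned sign. Of 560 with 1 library left out these were 509, 31, 6 and 14. For passage the 560 leave out a whole line, and each such fit is counted for both of its libraries. Against the control line these tallies cover only *Klf5* and *Nr5a2* for both clones and *Zfp42*, *Klf5* and *Nr5a2* for clone 1. For clone 2 they cover *Esrrb*, *Klf5* and *Zfp42*, so calls gained there by other members are not counted. Of all genes, 165 were called between the clones, against 435 with DESeq2, 327 with the replicate block, 106 with the stricter filter, 271 by adjusted p alone, 6 with only the lines compared and 14 to 260 with 1 library left out. For pre-iPS against iPS cells the 2781 calls became 1758 with the stricter filter and 6758 by adjusted p alone, which also gave 13546 for the 8237 of MEF against iPS cells and 12062 for the 7383 of pre-iPS cells against MEF. Against the control line, in the order both clones, clone 1 and clone 2, there were 360, 240 and 413, by adjusted p alone 697, 424 and 709, with only the lines compared 134, 0 and 17, with the replicate block 564, 490 and 711, and with 1 library left out 120 to 419, 63 to 264 and 126 to 377. DESeq2 gave 515 for clone 1 and 670 for clone 2, and quantile normalization 372 for clone 1. With passage there were 289, by adjusted p alone 1869, in the 6 iPS libraries alone 160, without the replicate block 6, and with 1 line left out 97 to 294.

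Few reads limit *Prdm14*, *Nr5a2* and *Nr0b1* in MEF. In the fits between lines, a library left alone in its line was assumed to vary like the others. The passage fits dropped such a library instead.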
